A study of Rattus norvegicus with 28 samples.

Results

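MicroRNA arrays of the rat hippocampus were compared between 3 rats with traumatic brain injury (TBI) that received no drug and 2 sham-injured rats (Sham). These 5 arrays are part of 14 miRNA arrays in a series of 28 arrays, the other 14 being gene expression arrays. Every group came from adult male Sprague-Dawley rats, the whole hippocampus was taken 24 h after the procedure, and each array held RNA of 1 rat. TBI rats received a severe parasagittal fluid percussion injury, in which a pulse of fluid deforms the brain through an opening in the skull, whereas Sham rats were prepared in the same way without the pulse. The other 9 miRNA arrays came from injured rats given imipramine, Prozac (fluoxetine) or Zoloft (sertraline) 1 h after injury, 3 rats per drug, and they enter the comparison of TBI with Sham only through a shared estimate of the spread.

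The members are the miRNAs measurable in the TBI hippocampus: 228 of 1806 probes, for 138 of 758 rat miRNAs, had more than 0.5 of their spots well above background on all 3 TBI arrays. Because this rule looked at the injured side only, a miRNA present in Sham and lost after injury could not have been kept. For the 138 miRNAs, 48 had 1 kept probe and 90 had several, and each miRNA is given by its brightest kept probe, with dimmer probes given for the miRNAs the results turn on. Values are log2 of the deposited intensity, which the study's methods divide by each array's own 75th percentile among probes above background. A difference of 1 is a doubling. A level of 0 is not that percentile among the probes detected here. The kept probes alone had medians of 0.60, 0.55 and 0.50 on TBI 1, 2 and 3.

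A miRNA is a short RNA cut from a hairpin precursor. It guides Argonaute proteins to messenger RNAs that pair with its seed, the bases near its 5′ end, and lowers their stability or translation. Many miRNA genes lie in clusters that are transcribed as 1 precursor, and miRNAs with the same seed form families with largely shared targets. In the brain, neurons are rich in miR-124, miR-9 and the let-7 family, whereas miR-21 is best known from reactive glia and immune cells.

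The sequences below carry the main contrasts, with the seed (bases 2 to 8) in capitals; they are the mature RNAs of RefSeq on build GRCr8, in which 125 of the 138 kept miRNAs were found. The first set holds the miRNAs that passed the test and, for comparison, relatives described below from their clusters, paralog clusters or seed families.
miR-21-5p: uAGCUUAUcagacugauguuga
miR-20a-5p: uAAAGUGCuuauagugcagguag
miR-17-5p: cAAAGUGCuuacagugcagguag
miR-20b-5p: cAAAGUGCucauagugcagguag
miR-106b-5p: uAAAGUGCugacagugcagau
miR-93-5p: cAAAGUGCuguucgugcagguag
miR-19b-3p: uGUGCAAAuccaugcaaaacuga
miR-92a-3p: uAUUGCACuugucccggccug
miR-25-3p: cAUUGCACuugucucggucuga
miR-27a-3p: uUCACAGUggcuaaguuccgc
miR-27b-3p: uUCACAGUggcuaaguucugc
miR-23a-3p: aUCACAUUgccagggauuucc
miR-24-3p: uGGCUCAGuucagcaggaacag

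The second set holds those of the 5 lowest differences that have an entry in the table, and 3 of the let-7 family whose probes moved apart.
miR-9a-5p: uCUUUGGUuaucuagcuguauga
miR-539-5p: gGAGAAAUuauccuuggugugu
miR-26b-5p: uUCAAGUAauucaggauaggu
let-7b-5p: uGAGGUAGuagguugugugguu
let-7i-5p: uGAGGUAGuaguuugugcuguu
let-7f-5p: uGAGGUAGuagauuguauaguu

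Where these genes lie bears on what the array can separate. The miR-17-92 cluster holds 6 hairpins within 785 bases (chr15:98587848-98588632, plus strand) and its paralog, the miR-106a-363 cluster, 5 hairpins within 871 bases (chrX:137342777-137343647, minus strand). The mature miR-17-5p, miR-19b-3p and miR-92a-3p are found at both loci, so their brightness cannot be assigned to 1 of them, whereas miR-20a-5p is found at the chromosome 15 locus and miR-20b-5p at the X locus. Mature miR-21-5p lies at chr10:71902653-71902674 (minus strand), and miR-27a-3p at chr19:40859614-40859634 (minus strand) between the hairpins of miR-23a and miR-24. No gene was found across the miR-17-92, miR-106a-363, miR-21 or chromosome 19 miR-23a-27a-24 hairpins in the RefSeq table. Genes with a symbol starting with Mir were left out of this search, so a host gene with such a symbol would be missed. Related miRNAs differ little: miR-17-5p and miR-20a-5p by 2 of 23 bases, and miR-27a-3p and miR-27b-3p by 1 of 21, so signal shared between such pairs of probes is possible.

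The Sham values need care. In the deposited scanner files of the 2 Sham arrays, 0 and 1 of the 1806 probes were well above background, against 229 to 304 on the TBI arrays, and the Sham columns of the authors' series table did not follow their own scanner files (r = -0.18 over 57 probes and -0.30 over 47), whereas each TBI column did (r = 0.999894 to 0.999992 over 228 probes). The Sham columns did follow the TBI arrays, with r = 0.980 to 0.988 over the 228 probes, a range that holds the value of Sham 1 with Sham 2 (0.983). By the slide identity in the files, both Sham arrays lay on 1 slide (slide 3 here) that held no other sample, and the 3 TBI arrays on another (slide 1) together with Prozac 1. The remaining 8 drug arrays were on slide 2. For Sham this identity is that of the nearly blank scanner files, so the slide behind the deposited Sham values is not known. Slide and injury therefore cannot be told apart in the comparison of TBI with Sham. Each group holds few arrays, each of a different rat. The p-values measure only the spread between arrays within groups, pooled over all 14 arrays of the fit. In whole hippocampus a lower value from fewer cells of a type and one from less RNA per cell cannot be told apart.

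The test called 4 miRNAs higher in TBI than in Sham: miR-21-5p, miR-19b-3p, miR-20a-5p and miR-27a-3p. By limma with Benjamini-Hochberg adjustment over the 228 probes, 6 probes passed an adjusted p of 0.05, all higher in TBI (2.63% of the 228), and 0 were lower. These 6 probes belong to 4 of the 138 miRNAs (2.9%). Without adjustment, 18 higher and 8 lower probes had a p under 0.05.

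Among the 138 miRNAs, 108 had a higher mean in TBI and 30 a lower one, with a median difference of 0.12 and an interquartile range of 0.015 to 0.23. For 40 miRNAs (29%) every TBI array lay above both Sham arrays, and for 5 (3.62%) every TBI array lay below them. Over single probes the corresponding counts were 50 of 228 (21.9%) and 24 (10.5%). Most differences were within the noise of the controls: the gap between the 2 Sham arrays was wider than the difference between TBI and Sham for 81 of the 138 miRNAs.

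Quantile normalization reduced this lean, whereas median scaling did not. With quantile normalization the median over miRNAs was 0.020 in place of 0.12, 82 of 138 miRNAs had a higher mean in TBI, and 8 probes passed, 6 higher and 2 lower. Subtracting each array's median over the kept probes left the median at 0.12, with a higher mean in TBI for 108 of 138 miRNAs. It also gave 8 calls, 6 higher and 2 lower. The calls also rest on the controls and on the pooled spread. Without Sham 1, and likewise with the TBI and Sham arrays fitted alone, 0 probes passed by limma (23 and 36 at an unadjusted p under 0.05). The scanner values of the TBI arrays set against the Sham columns, a fit of the 5 arrays alone, also gave 0 calls, with 34 probes at an unadjusted p under 0.05.

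miR-21-5p, a miRNA induced in many injured tissues, had the clearest difference. Its log2 values were 1.06 and 1.46 on the Sham arrays and 2.85, 2.89 and 2.25 on TBI 1, 2 and 3. All 3 TBI values stood above both Sham values, with TBI 3 the lowest of the injured arrays. The difference was 1.40 (SE 0.20, limma adjusted p = 0.00539), 2.64-fold higher in TBI. Its second probe gave a difference of 1.26 and passed too, at an adjusted p of 0.0098 by limma. Leaving out single TBI or Sham arrays kept the difference of the brightest probe between 1.21 and 1.61, the lowest being without Sham 1. Leaving out a drug-treated array could not change this difference.

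The miR-17-92 cluster, a precursor known for promoting proliferation in progenitor and immune cells, stood higher in TBI at each of its kept members. The array carried 15 of its miRNAs, both arms included, and 4 were kept: miR-17-5p, miR-20a-5p, miR-19b-3p and miR-92a-3p. All 4 lay above Sham without overlap and 2 passed the test, against 29% and 2.9% of all 138 miRNAs. The filter looked at TBI arrays only, so dim members could enter through the side where they are high. miR-19a-3p had a probe above background on 1 TBI array and was not kept. It read -1.80 and -3.10 in Sham and -2.14, -2.21 and -1.85 in TBI, which overlap. The median difference of the 4 was 0.66, against 0.12 over all miRNAs, and it lay between 0.47 and 0.81 over the 28 alternatives tried. Both ends of this range came from single arrays left out. Alternatives that change only the spread, such as leaving out a drug-treated array, could not move the difference.

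For miR-20a-5p the Sham arrays read -1.05 and -0.69 and TBI 1, 2 and 3 read -0.18, -0.10 and -0.32. The groups were apart, and the difference of 0.67 passed (SE 0.12, limma adjusted p = 0.0107), 1.59-fold higher in TBI. Its dimmer probe gave the same difference of 0.67 and passed too. Beyond the fits that ended all calls, miR-20a-5p did not pass without TBI 2.

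For miR-19b-3p, the member whose seed is shared with miR-19a, the Sham arrays read 0.01 and 0.22 and the TBI arrays 0.74, 0.80 and 0.73. The 3 injured rats were close to each other and all above Sham. The difference was 0.64 (SE 0.11, limma adjusted p = 0.00866), 1.56-fold higher in TBI. Its dimmer probe did not show this: Sham read -1.26 and -1.14, TBI read -1.04, -1.18 and -0.94, the groups overlapped, and the difference was 0.15.

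miR-92a-3p read -1.78 and -1.12 in Sham and -0.72, -0.48 and -1.02 in TBI. The groups did not overlap, but Sham 2 and TBI 3 lay close together and the difference of 0.71 (SE 0.24) had a limma adjusted p of 0.233. miR-17-5p read -2.24 and -1.93 in Sham and -1.18, -1.49 and -1.76 in TBI, again without overlap. Its difference was 0.61, with an SE of 0.58 and a limma adjusted p of 0.737. The spread behind that error lay in a drug-treated array: Imipramine 3 read 1.102 for miR-17-5p, while every other injured rat, with or without drug, read between -1.76 and -1.18. Without Imipramine 3 the SE was 0.15 (rno-miR-17-5p) and the same difference still did not pass.

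From the X-linked paralog, miR-20b-5p read -2.11 and -1.80 in Sham and -1.29, -1.34 and -1.51 in TBI. Here too all injured values were above Sham, with a difference of 0.57 (SE 0.31, limma adjusted p = 0.508), and Imipramine 3 was again the highest array, at -0.18. Without Imipramine 3 the same difference of rno-miR-20b-5p passed by limma (adjusted p = 0.0488, the lowest of its alternatives, which reached 0.889). Of the miR-106a-363 list 3 miRNAs were kept, all 3 above Sham without overlap (29% of all miRNAs were), but miR-19b-3p and miR-92a-3p are counted in both lists. With miR-17-5p, whose mature sequence is also found there, the X locus holds 4 kept miRNAs.

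A further paralog, the miR-106b-25 cluster in an intron of Mcm7, a gene of the DNA replication helicase, did not separate the groups. Its 3 kept members overlapped between Sham and TBI, with a median difference of 0.17. miR-106b-5p, which has the seed of miR-17-5p and miR-20a-5p, read -0.39 and -0.20 in Sham and -0.23, -0.09 and -0.07 in TBI, a difference of 0.17 (limma adjusted p = 0.615). miR-93-5p differed by 0.14, and miR-25-3p, with the seed of miR-92a-3p, by 0.24. Across the 5 kept miRNAs with the seed AAAGUGC the differences ran from 0.14 for miR-93-5p to 0.67 for miR-20a-5p. No test of a difference between these members was made.

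**Figure D1:**
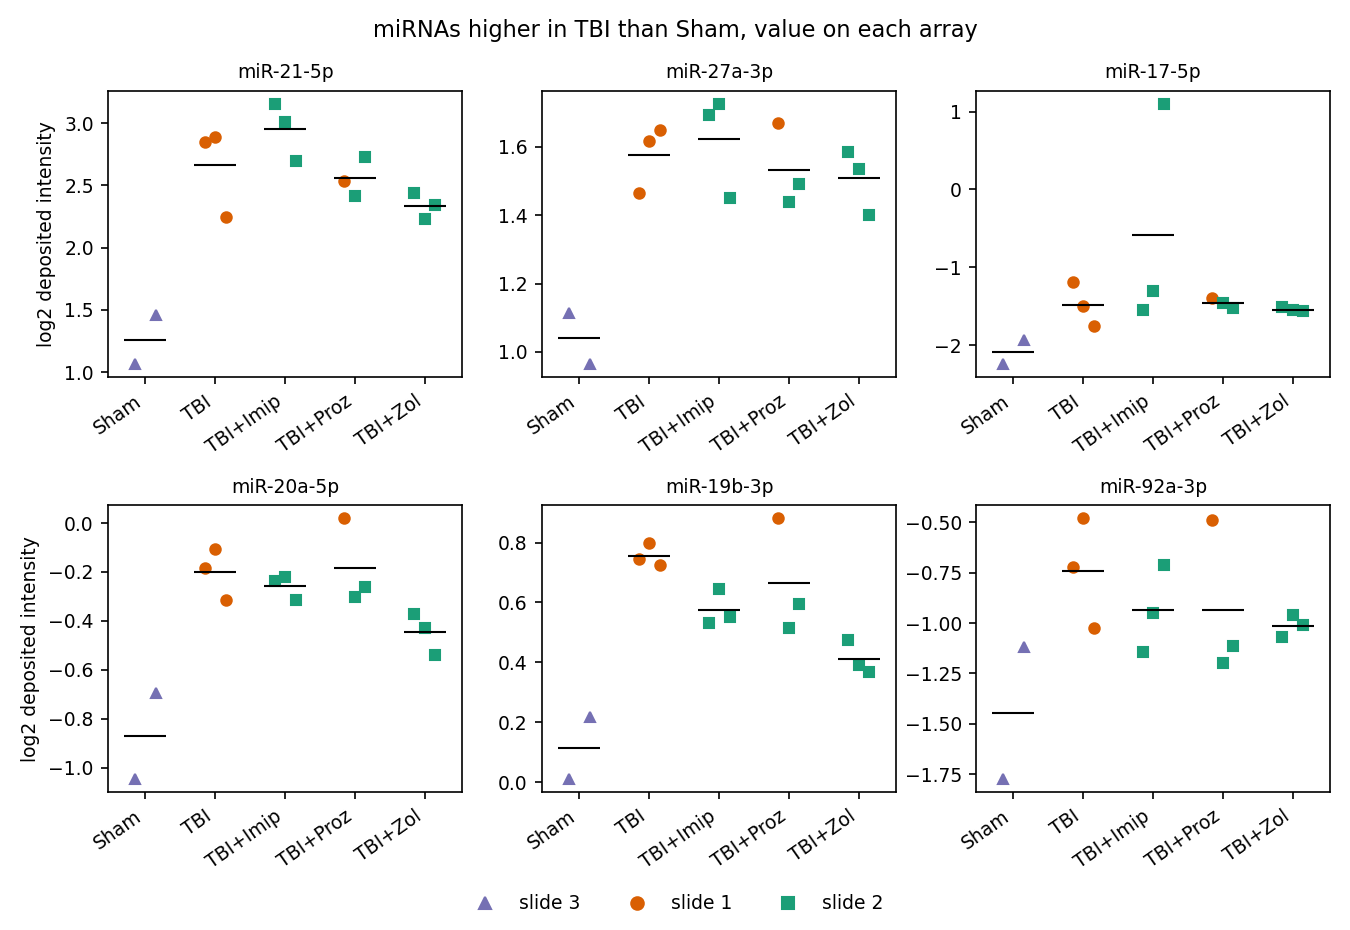
Log2 deposited intensity of 6 miRNAs on each of the 14 arrays, by group, with bars at the group means. Marker shapes give the slide named in each scanner file. The TBI arrays stand above both Sham arrays in each panel, and Imipramine 3 stands apart for miR-17-5p at 1.102.

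miR-27a-3p was the only member of its cluster to pass the test. It read 1.12 and 0.96 in Sham and 1.47, 1.62 and 1.65 in TBI. The injured arrays were all above Sham, by 0.54 on average (SE 0.11, limma adjusted p = 0.0176), 1.45-fold. Its dimmer probe differed by 0.28 without overlap and did not pass (limma adjusted p = 0.382).

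Its neighbours on chromosome 19 differed less. miR-23a-3p read 1.93 and 1.86 in Sham and 1.88, 2.00 and 2.00 in TBI, which overlap, and its dimmer probe differed by -0.096. miR-24-3p, which is also made from chromosome 17, read 2.43 and 2.44 in Sham and 2.54, 2.66 and 2.51 in TBI, a difference of 0.13 without overlap. miR-27b-3p, 1 base away from miR-27a-3p and from the chromosome 17 cluster, differed by 0.092 with overlap and by -0.12 on its dimmer probe. Of the 4 calls miR-27a-3p was the least stable: it did not pass under quantile normalization, with the mean of its probes, or without Sham 1, Sham 2, TBI 2 or TBI 3, and its difference by the brightest probe stayed between 0.46 and 0.61 when single arrays were left out.

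miR-466b-5p, one of a large rodent family of repeat-derived miRNAs, had the largest difference of all 138 miRNAs but did not pass. It read -3.29 and -2.40 in Sham and -1.40, -1.37 and -1.30 in TBI. Sham 1 lay just above the floor of the deposited values (0.1 before log2), so the size of the difference rests partly on a value near the floor. The TBI arrays were nearly alike and the 2 Sham arrays 0.89 apart, so that the difference of 1.49 had an SE of 0.51 and a limma adjusted p of 0.233. miR-1224, also among the 5 largest differences, read 0.97 and 1.99 in Sham and 2.26, 2.27 and 2.00 in TBI. Sham 2 nearly reached TBI 3, the difference was 0.70 (SE 0.62, limma adjusted p = 0.699), and on its second probe the groups overlapped.

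miR-22-3p and let-7i-5p were higher in TBI without overlap by their brightest probes and did not pass. miR-22-3p, abundant in brain and heart, read 2.96 and 3.05 in Sham and 3.38, 3.36 and 3.34 in TBI. The groups were well apart and the difference was 0.35 (limma adjusted p = 0.12), yet its second probe differed by -0.0075.

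The let-7 family, whose seed GAGGUAG is among the most abundant in brain, leaned higher in TBI by its brightest probes and not by its dimmest. Of 9 kept members with this seed 0 passed, 7 had a higher mean in TBI, 5 did not overlap with Sham, and the median difference was 0.22; over all 138 miRNAs 108 had a higher mean and 29% stood above Sham without overlap. let-7b-5p read 3.93 and 4.29 in Sham and 4.51, 4.49 and 4.43 in TBI, a difference of 0.36. let-7i-5p read 2.92 and 3.08 in Sham and 3.27, 3.45 and 3.20 in TBI, a difference of 0.31 (limma adjusted p = 0.154). let-7a-5p, 1 base from let-7f-5p, differed by 0.072 and let-7f-5p by -0.020. In the list of 8 let-7 miRNAs fixed for counting, which leaves out let-7g-5p, the median was 0.24 by brightest probes and -0.0029 by dimmest.

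Most other families and clusters sat near the median of all miRNAs. The 5 kept miRNAs with the miR-15/16 seed all had a higher mean in TBI by their brightest probes, by 0.14 to 0.29, and of these miR-497-5p alone was free of overlap. By the dimmer probes the direction turned, to -0.20 for miR-16-5p (below Sham without overlap), -0.14 for miR-195-5p and -0.045 for miR-497-5p, and the median of the list fell to -0.091. The largest cluster, miR-379 to miR-410, which is imprinted and expressed in neurons, spans chr6:134543445-134579838 and had 17 kept members with a median of 0.099. Of these, 14 had a higher mean in TBI and 3 a lower one, miR-154-5p, miR-487b-3p, miR-300-3p and miR-382-5p (4 of 17) stood above Sham without overlap, against 29% of all miRNAs, and 0 passed. The dimmer probe of miR-487b-3p differed by -0.029 and that of miR-300-3p by 0.010. The 3 kept miR-29 miRNAs with a shared seed differed by 0.0048 to 0.089, and the 3 of miR-34 by 0.079 to 0.16. miR-132-3p and miR-212-3p, a pair induced by neuronal activity, had a median of 0.17 with overlap. Both kept miR-26 miRNAs had a lower mean in TBI, with a median of -0.19.

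**Figure D2:**
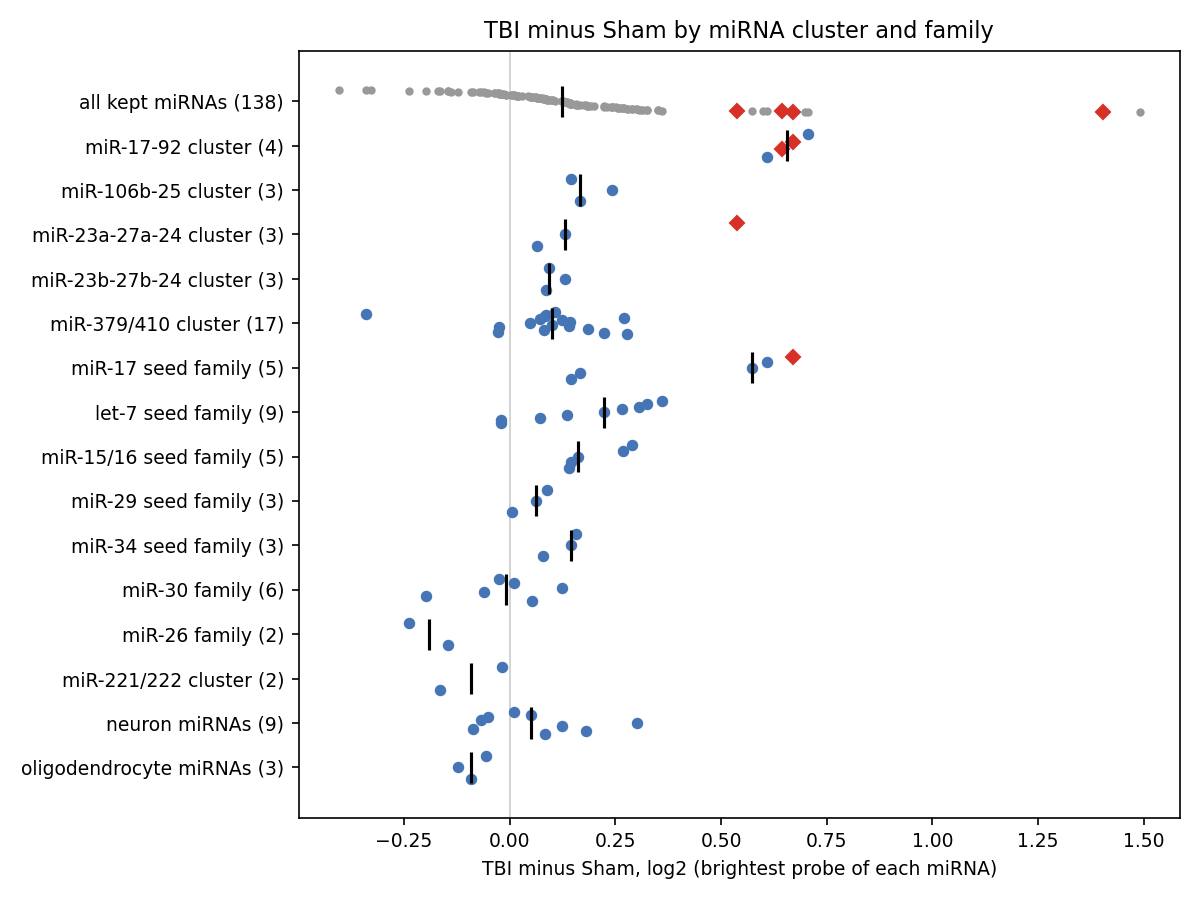
Difference in log2 deposited intensity, TBI minus Sham, for each kept miRNA of the clusters and families, by its brightest probe; a black tick marks each median and red diamonds the miRNAs that passed the test. The miR-17-92 members sit between 0.61 and 0.71, whereas most families are centred near the median of 0.12 over all miRNAs.

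Of the 5 miRNAs with the lowest differences, miR-9a-5p, miR-352, miR-26b-5p and miR-30b-5p lay below Sham on every TBI array, but 0 miRNAs passed the test on the lower side. miR-9a-5p, a neural miRNA that controls the timing of neurogenesis, read 4.65 and 4.57 in Sham and 4.26, 4.23 and 4.12 in TBI. The gap between the groups was wider than the spread within either, and the difference was -0.40 (SE 0.12, limma adjusted p = 0.131). Its second probe differed by -0.42. The other arm of the same hairpins, miR-9a-3p, went the opposite way: it read 4.40 and 4.37 in Sham and 4.59, 4.57 and 4.55 in TBI, a difference of 0.18 (limma adjusted p = 0.508).

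miR-352 read -0.66 and -0.51 in Sham and -0.77, -0.95 and -1.02 in TBI, a difference of -0.33 (limma adjusted p = 0.233). miR-26b-5p, from an intron of the phosphatase gene Ctdsp1, read 1.02 and 1.11 in Sham and 0.85, 0.90 and 0.73 in TBI, a difference of -0.24. miR-30b-5p read 1.84 and 1.68 in Sham and 1.52, 1.58 and 1.58 in TBI, a difference of -0.20. For these 3 the groups were apart by a small margin, as they were for miR-101a-3p at -0.15. miR-539-5p, also among the 5 lowest at -0.34, overlapped: Sham read -0.75 and -1.62 and TBI -0.71, -1.88 and -1.97.

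Calls on the lower side appeared when the scale or the spread was changed. Under quantile normalization miR-9a-5p and let-7f-5p passed as lower, and with the medians subtracted let-7f-5p and miR-125b-5p. For let-7f-5p and miR-125b-5p the probe concerned was the dimmer one. The dimmer let-7f-5p probe read 2.98 and 3.06 in Sham and 2.70, 2.66 and 2.49 in TBI, a difference of -0.40 (limma adjusted p = 0.066), while the brightest differed by -0.020. Without Prozac 1, 10 probes passed, 6 higher and 4 lower, the latter from let-7f-5p, miR-125b-5p and miR-9a-5p.

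**Figure D3:**
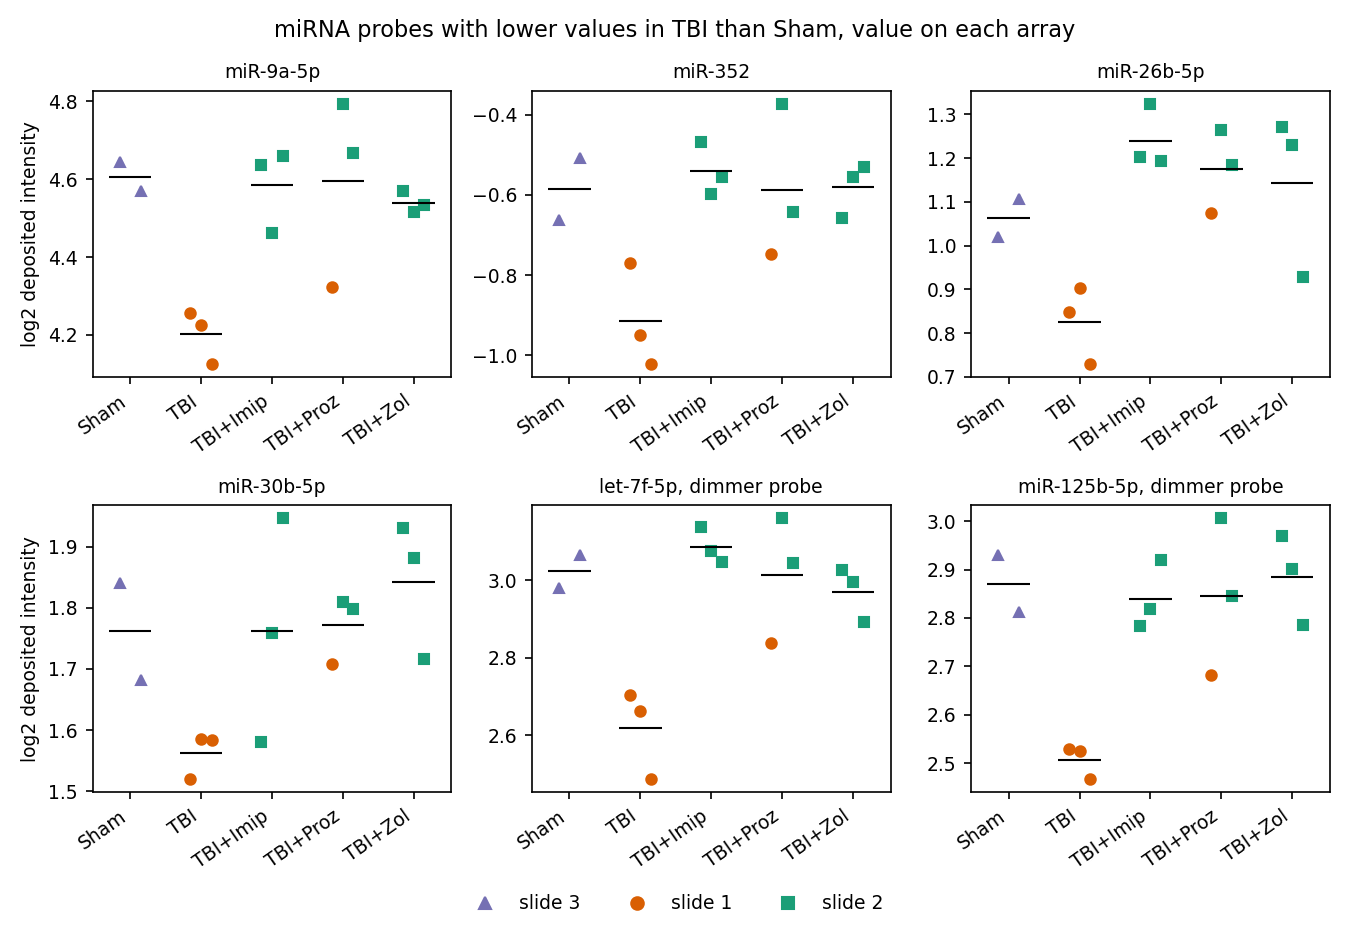
Log2 deposited intensity on each of the 14 arrays for 4 miRNAs below Sham in TBI and for the dimmer probes of let-7f-5p and miR-125b-5p. Bars are group means and marker shapes the slide named in each scanner file. The TBI arrays lie below both Sham arrays in each panel; for miR-9a-5p Prozac 1, on the same slide as TBI, read 4.32 against 4.79 and 4.67 for Prozac 2 and 3.

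Prozac 1 is the one drug-treated array on the slide of the TBI arrays, and its values moved with the results. It lay above both other Prozac arrays for 36 of the 40 miRNAs that were above Sham without overlap, against 89 of all 138, and below both for 5 of the 5 that were below Sham, against 27 of 138. Of the 4 miRNAs that passed, Prozac 1 was above both others for miR-19b-3p, miR-20a-5p and miR-27a-3p, and between them for miR-21-5p (2.54, against 2.41 and 2.73). The difference between TBI and Sham and that between Prozac 1 and the mean of Prozac 2 and 3 correlated at r = 0.30 over 138 miRNAs. These differences have no array in common, but the miRNAs were read on the same arrays and are not independent values. The part of the slide in the differences was not tested.

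The probes of 1 miRNA disagreed in a patterned way. Of the 90 miRNAs with several kept probes, 31 had probes with opposite signs. By the brightest probe 68 of the 90 had a higher mean in TBI, 27 were above Sham without overlap and 4 below; by the dimmest 41 had a higher mean, 10 were above without overlap and 19 below. The dimmest probe gave a lower difference than the brightest for 76 of the 90, with a median gap of -0.13. Agilent probes for a miRNA can differ in the length that pairs with the target, and their order by brightness was set on the TBI arrays.

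The same gap stood out by slide. The median over the 90 miRNAs of the brightest minus the dimmest probe was 1.04, 0.99 and 0.98 on TBI 1, 2 and 3 and 1.01 on Prozac 1. It was 0.84 and 0.86 on the Sham arrays and 0.81 to 0.88 on the 8 drug arrays of slide 2. All 4 arrays of slide 1 were thus above the other 10, with or without drug. Of the 4 miRNAs called, miR-21-5p and miR-20a-5p passed by both probes, and miR-19b-3p and miR-27a-3p by the brightest alone.

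**Figure D4:**
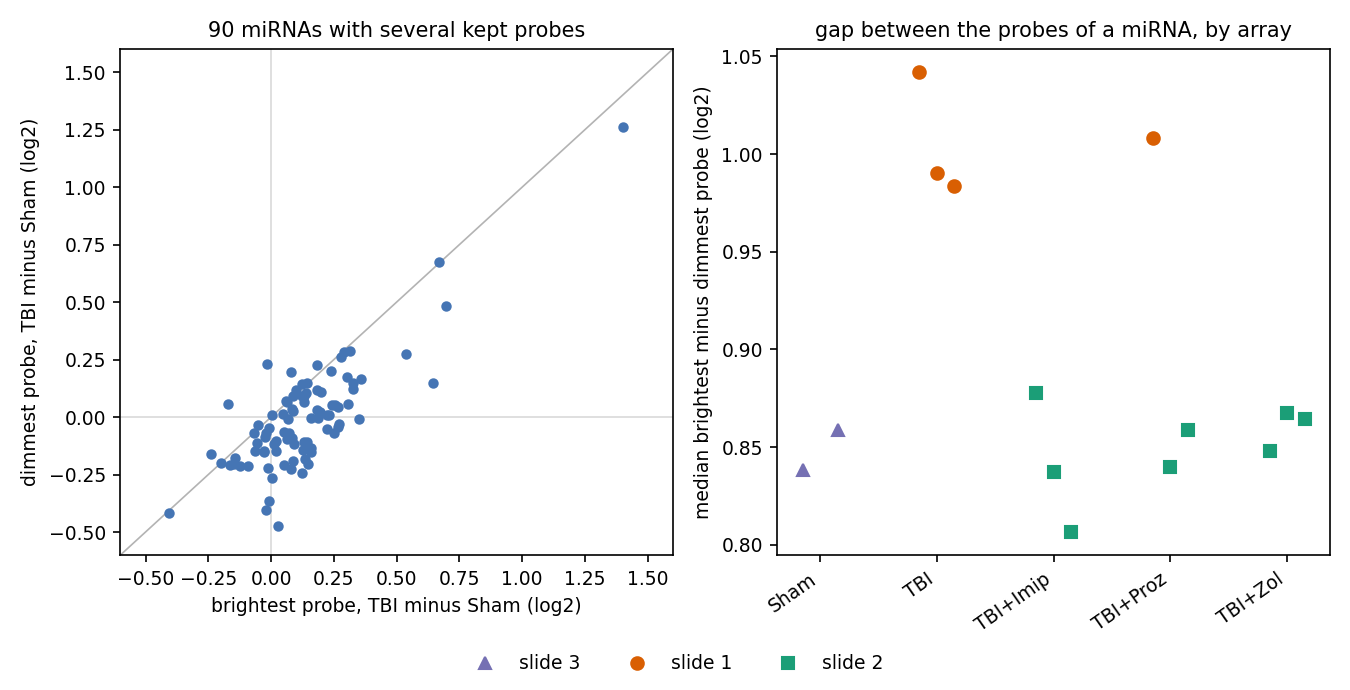
Left, TBI minus Sham on the log2 scale by the dimmest against the brightest probe of each of 90 miRNAs. Right, the median log2 gap between brightest and dimmest probe on each array, by the slide named in its scanner file. The arrays of slide 1 lie between 0.98 and 1.04 and the rest between 0.81 and 0.88.

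Most markers of cell types overlapped between TBI and Sham. Of 19 neuronal miRNAs on the array (such as miR-124, miR-128 and miR-138), 9 were kept, 6 with a higher and 3 with a lower mean in TBI, with a median of 0.050. miR-124-3p, the defining neuronal miRNA, read 5.58 and 5.42 in Sham and 5.55, 5.54 and 5.66 in TBI, which marks the tissue as neural in both groups. All 3 kept oligodendrocyte miRNAs had a lower mean, by -0.12 to -0.056, with overlap.

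Blood and immune markers were sparse. miR-451-5p, from red blood cells, differed by 0.14 with overlap, and miR-126a-3p, from endothelium, by 0.052 with overlap on its brightest probe and by -0.21 without overlap on its dimmer one. The leukocyte marker miR-142-3p read -1.70 and -1.58 in Sham and -0.68, -1.38 and -1.07 in TBI. All 3 injured rats were above Sham, with a difference of 0.60 (SE 0.28, limma adjusted p = 0.449). Of the 12 miRNAs on the inflammation list 3 were kept, and miR-21-5p alone passed; miR-146a-5p, miR-155 and miR-223 were not measurable on all TBI arrays. The choroid plexus marker miR-204-5p spread widely within both groups, reading 0.42 and 1.83 in Sham and 0.87, 0.87 and 1.71 in TBI, and its probes differed from Sham by 0.029 and -0.47. None of the 9 muscle miRNAs was kept. The part of cell composition in the differences was not tested.

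Base composition was set beside the differences as a description. Among the 125 with a sequence, the median GC content was 50% for the 38 above Sham without overlap, 43.5% for the 84 with overlap and 33.3% for the 3 below Sham. The difference between TBI and Sham correlated with GC content at r = 0.16 over the 125 miRNAs. By array the value was 0.018 for TBI 1, 0.16 for TBI 2 and 0.24 for TBI 3, which differ although the Sham values are shared. The 4 miRNAs that passed had a median of 39.1%, and without them r was 0.26 over 121 miRNAs.

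The injured rats given a drug show the called miRNAs in further animals, although every comparison uses the same 2 Sham arrays. For miR-21-5p the imipramine arrays read 3.16, 3.01 and 2.70, the Prozac arrays 2.54, 2.41 and 2.73 and the Zoloft arrays 2.44, 2.23 and 2.35. All 9 lay above both Sham arrays, by 1.70, 1.30 and 1.08 on average in the 3 groups, and each group passed the test against Sham. Of the 228 probes, 3.95% passed as higher than Sham with imipramine, 2.63% with Prozac and 0.877% with Zoloft, and of the 138 miRNAs 3.62%, 2.9% and 0.725%.

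miR-20a-5p differed from Sham by 0.61 with imipramine, 0.69 with Prozac and 0.42 with Zoloft, and miR-19b-3p by 0.46, 0.55 and 0.30. For miR-27a-3p the differences were 0.58, 0.49 and 0.47. These 3 passed with imipramine and with Prozac, and not with Zoloft (limma adjusted p of 0.209, 0.485 and 0.0998). Of the 12 comparisons with Sham, 4 miRNAs in 3 drug groups, 9 passed; without Sham 1 this was 2, and without Sham 2 it was 5.

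The miRNAs below Sham in TBI did not show this. miR-9a-5p differed from Sham by -0.022 with imipramine, -0.012 with Prozac and -0.067 with Zoloft, and miR-352 by 0.045, -0.0014 and 0.0042. The drug arrays of these means lay on slide 2, except for Prozac 1.

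The gene expression arrays of the same series give a second readout for genes that hold or answer to these miRNAs. Over 17322 kept gene expression probes, 8.3% passed as higher and 8.32% as lower in TBI than in Sham. Of 33 listed genes that hold a miRNA or, as Vmp1 in the RefSeq table, lie beside one, 26 were measured, 1 passed as higher, 0 as lower (by limma), and the median difference was 0.062. That one was Arrb1, the beta-arrestin gene that holds miR-326, at 0.77 (limma adjusted p = 0.0162). Its probe was not well above background on all 5 arrays, and the call was lost without Sham 1, without Sham 2, with the 2 groups fitted alone and with normexp, where the difference was 0.085. Vmp1, the gene next to miR-21, read 0.61 and 0.32 in Sham and 0.12, 0.54 and 0.66 in TBI on the log2 scale relative to each array's 75th percentile. The groups overlapped and the difference was -0.029 (limma adjusted p = 0.928), while miR-21-5p was higher in TBI. Mcm7, host of miR-106b-25, differed by 0.41 without overlap and did not pass (limma adjusted p = 0.169).

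Of 10 listed target genes 5 were measured, and 1 passed as higher. E2f1, a cell cycle transcription factor known as a target of miR-17 and miR-20a, read -3.25 and -2.90 in Sham and -2.46, -2.28 and -2.37 in TBI. It rose by 0.71 (SE 0.22, limma adjusted p = 0.0467), a call lost without any 1 of the 5 arrays. Cdkn1a, the inhibitor p21 and a target of the same seed, read 0.57 and 0.58 in Sham and -0.21, 0.14 and 0.13 in TBI. Its difference of -0.55 did not pass (limma adjusted p = 0.075), and its other probe gave 1.06. Pdcd4, a target of miR-21, differed by -0.24 with overlap.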

How the data were processed

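Total RNA of the hippocampus was hybridised to 1-colour Agilent miRNA and gene expression arrays. The deposited scanner files hold spot intensities and flags from Agilent Feature Extraction 11.5.1.1. The deposited series table holds linear intensities that the authors scaled to the 75th percentile of probes above background on each array, with a floor of 0.1 at which no kept value lay. Its columns were used for miRNAs as log2 because the Sham scanner files are nearly blank, and scanner flags of the TBI arrays chose the probes. Groups came from sample titles. All 14 miRNA arrays entered 1 fit in limma 3.58.1 (R 4.3.3), with a mean per group, two-sided tests and Benjamini-Hochberg adjustment over 228 probes. Gene expression used the scanner intensities as deposited, log2 minus each array's 75th percentile, in the same kind of fit; listed genes are given by their brightest probe. No column belonged to a sample outside the series (0).

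Text names miRNAs that passed, the 5 largest differences in each direction, and members of listed families, clusters and cell-type markers; miR-22-3p, let-7i-5p, let-7f-5p and miR-125b-5p were singled out after their values were seen. Members and lists were chosen with earlier results of these data known. Alternatives were quantile or median scaling, other probe filters, 0.1 added before log2, single arrays left out, replicate and slide blocks, probe means, trend and robust moderation, the methods' t-test (p under 0.05, fold over 1.2), the dimmest probe, and, for genes, normexp on median signals (offset 50). The fit was tested on simulated data. One item of the target list is not reported here. Precision is limited by the number of arrays.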

Additional observations from a re-analysis of the deposited data

Results flagged for a closer look

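With imipramine, 13 of 138 miRNAs (9.42%) differed from TBI without drug, each tested as imipramine minus TBI in the same limma fit with adjustment over the 228 probes. By limma 0 did with Prozac and 0 with Zoloft (4 and 12 at an unadjusted p under 0.05, against 32 with imipramine), and a difference between the drugs was not tested. The 13 are 4 higher and 9 lower with imipramine. The imipramine arrays were on slide 2 and the TBI arrays on slide 1, so that drug and slide cannot be told apart. Imipramine minus TBI and TBI minus Sham also use the same TBI arrays with opposite signs. Opposite directions of these differences are therefore favoured in advance and are no separate evidence.

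Among the 4 higher, miR-9a-5p differed by 0.38 (SE 0.11, limma adjusted p = 0.0458), with -0.40 for TBI minus Sham and -0.022 for imipramine minus Sham. miR-352 differed by 0.37 (SE 0.10, limma adjusted p = 0.0428), with -0.33 and 0.045 against Sham. miR-26b-5p differed by 0.41 (SE 0.10, limma adjusted p = 0.0315), with -0.24 and 0.18. These 3 were below Sham on every TBI array, as were 3.62% of all 138 miRNAs. miR-365-3p differed by 0.75, with -0.032 and 0.72.

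Of the 9 lower, 6 stood above Sham on every TBI array, as did 29% of all 138 miRNAs. let-7i-5p differed by -0.31 (limma adjusted p = 0.0428), with 0.31 for TBI minus Sham and -0.0055 for imipramine minus Sham. The differences of the others were -0.38 for miR-342-3p, -0.44 for miR-154-5p, -0.44 for miR-434-3p, -0.37 for miR-300-3p and -0.40 for miR-324-5p. For miR-185-5p, miR-410-3p and miR-127-3p, which overlapped with Sham in TBI, they were -0.32, -0.44 and -0.35.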

How the results depend on the processing

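The 6 calls of TBI against Sham became 44 with no filter, of which 35 were at the floor in both Sham arrays. They became 3 with probe means, 0 with only the 2 groups fitted, and 0 with TBI scanner files. Leaving out single arrays gave 0 (Sham 1) to 10 (Prozac 1), with 2 without TBI 2. The methods' t-test gave 18 calls at its fold limit (14 higher, 4 lower), 30 without that limit and 0 after Benjamini-Hochberg. The 4 named miRNAs, and likewise the 4 in families and clusters, became 0 with only the 2 groups fitted, 0 with TBI scanner files and 2 by the dimmest probe, and 0 to 4 or 0 to 5 without single arrays. The 9 drug calls became 4 (quantile), 5 (median), 1 (no filter) and 3 (only 2 groups), and 2 to 10 without single arrays. The 2 host and target calls became 5 (quantile), 5 (series table), 1 (no filter), 6 (normexp) and 0 (only 2 groups), and 0 to 2 without single arrays.

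Among the differences with no call, some turned sign. Tgfbr2 was -0.091 with normexp. Vmp1 ranged from -0.17 to 0.13 without single arrays, being 0.11 without Sham 1 and 0.13 without TBI 1, and was 0.34 with normexp. Without single arrays rno-let-7f-5p ranged from -0.097 to 0.057, rno-miR-125b-5p from -0.025 to 0.018 and rno-miR-539-5p from -0.77 to 0.094. The cause of these changes was not tested.

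Same-numbered rats are different rats, and their deviations correlated at 0.094 and 0.025, so the numbers pair nothing. The replicate block gave 6 calls for TBI against Sham, 4 named, 4 in families and clusters, 8 for the drug groups and 1 for host and target genes, and turned rno-let-7f-5p to 0.019. A random slide block gave 6 calls (consensus correlation 0.065). Only the Prozac arrays lay on more than 1 slide. This block therefore could not separate a slide difference between TBI and Sham from the group difference.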

Other observations

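Just outside the filter, 62 probes were well above background on 2 of the 3 TBI arrays and 20 on 1. Their median differences between TBI and Sham were 0.20 and 0.72 on the log2 scale of the deposited intensity, against 0.069 for the 228 kept probes. Of the first 62, 0 were at the floor in both Sham arrays, and of the 20, 3 were. The 1496 probes above background on 0 TBI arrays had a median difference of 0.60, with 1214 at the floor in both Sham arrays. A higher median in TBI was thus also found among probes not detected there.

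Both arms of several hairpins were measurable. The arms of miR-324 differed from Sham by 0.19 and 0.24 and those of miR-652 by 0.29 and 0.26. All 4 were without overlap, as were 29% of all 138 miRNAs on the higher side, and none passed the test. The dimmer probes of miR-324-5p and miR-324-3p differed by 0.021 and 0.055 with overlap. That of miR-652-5p differed by 0.28 without overlap. The arms of miR-140 differed by 0.16 and 0.18. For miR-129-5p, a neuronal miRNA made from 2 hairpins, the difference was 0.30 without overlap, while the 3p arms gave -0.086 and 0.12 with overlap.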
